A study of Mus musculus with 32 samples.

Results

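The last samples of a neural and of a global differentiation of mouse embryonic stem cells (ESCs) were set side by side: 4 libraries of neural progenitor cultures (NPCs) at day 10 and 4 libraries of embryoid bodies (EBs) at day 20. These are 8 of the 32 libraries of the series, chosen by the stage and day in the labels, with 1 library per treatment at each endpoint and no measured value in the choice. All cells came from J1 ESCs, a line of strain 129S4/SvJae, and the labels name no genetic change. At each endpoint 1 culture had received the solvent dimethyl sulfoxide (DMSO) and each of the others one of the bisphenols A, F and S (BPA, BPF, BPS) at 100 nM. The EBs, floating aggregates of differentiating cells, were kept to day 20. The NPCs are labelled as monolayers. They are the last step of a course whose EBs of day 8 had spent 4 days in retinoic acid, and the labels do not say whether it was still present at day 10. Days in culture, retinoic acid and growth as an aggregate or a monolayer differ together between the endpoints and cannot be told apart.

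The embryonic neural tube is patterned along its length and across its width before its cells become neurons and glia. Retinoic acid activates the Hox genes of the hindbrain and spinal cord, which lie in clusters and are switched on in the order of their position, whereas Otx genes mark the forebrain and midbrain, where Hox genes are silent. Proneural factors such as the neurogenins then drive progenitors out of division, and neurons appear before astrocytes and ependyma. EBs left without such a signal form derivatives of all germ layers beside neural cells.

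Levels are the deposited FPKM (fragments scaled to transcript length and library size), given in the order DMSO, BPA, BPF, BPS where all 4 libraries of an endpoint are listed, and otherwise as the lowest and highest of the 4 or as mean ± SD. A log2 difference is NPC minus EB from an edgeR fit of the counts with a term for treatment (± SE), so that negative values are genes higher in the EBs. Genes with 1 CPM or more in at least 4 of the 8 libraries were tested. A gene near 0 at an endpoint was thus tested only if it was high at the other. Counts among tested members of a list therefore lean towards the endpoint where the list is high. This holds for all lists below, also where it is not repeated. A gene was called where the adjusted p (Benjamini-Hochberg) was under 0.05 and the log2 difference was at least 1 in size. The labels give no second culture of any treatment at an endpoint, so the SD of a group includes whatever treatment did, and p-values measure the spread between these libraries alone. Total expected counts per library were 9970352 to 10076049 in NPCs and 9574833 to 9879782 in EBs, with 16326 to 16618 and 17479 to 17839 genes listed. Pearson's r of log2 FPKM across genes was 0.987 to 0.993 between NPC libraries, 0.984 to 0.989 among the bisphenol EBs and 0.844 to 0.893 between endpoints. The DMSO EB library stood apart from the other EBs (r of 0.958 to 0.969), and results that rest on it are given with and without the DMSO pair.

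Of 14304 genes tested, 4392 were called (30.7%), 1319 higher in NPCs (9.22%) and 3073 higher in EBs (21.5%). The counts of called list members below are to be read against 9.22% and 21.5%. Called differences of a log2 of 3 or more numbered 116 towards NPCs and 697 towards EBs. In 19 genes no read was counted in any NPC library, and in 0 genes was this so for the EBs. For 66.974% of tested genes the 4 libraries of one endpoint lay entirely above the 4 of the other. The plot of mean levels shows that Hox genes leave the diagonal on one side and astrocyte and cardiac genes on the other, with cell cycle genes along it. Scaling by library totals alone moved the median difference of all tested genes from -0.03 to -0.20 and the split of calls from 1319 and 3073 to 913 and 3519.

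**Figure D1:**
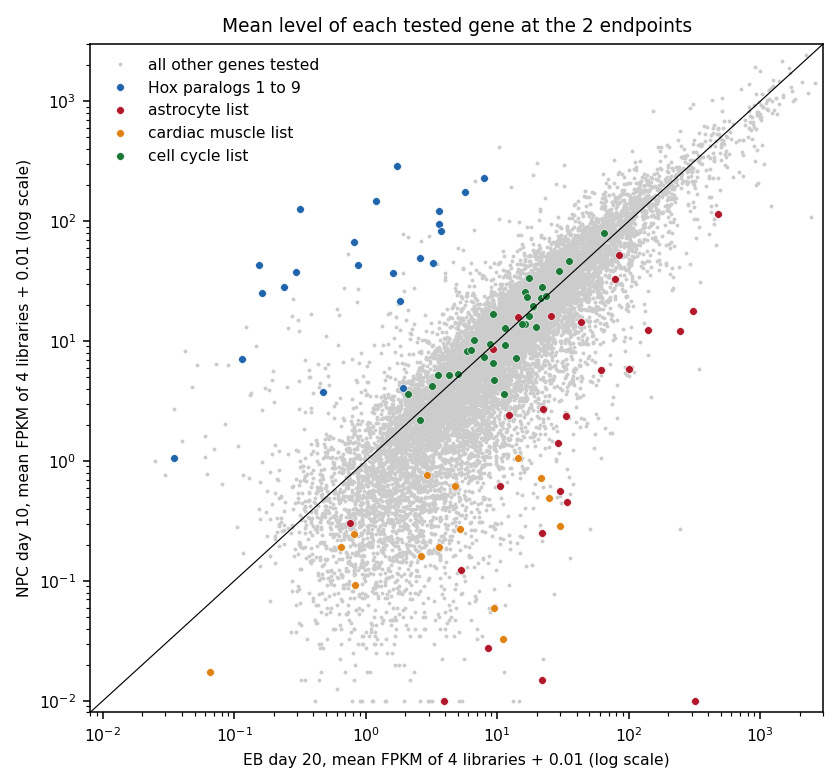
Mean FPKM of each tested gene in EB day 20 (x axis) and NPC day 10 (y axis), both on log scales after adding 0.01, over 4 libraries each. Hox paralogs 1 to 9 (blue) lie above the line of equality, astrocyte (red) and cardiac (orange) genes mostly below it, and cell cycle genes (green) along it.

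Genes of position along the neural tube separated the endpoints. Of 27 genes of Hox paralogs 1 to 9, 22 were tested and all 22 were called higher in NPCs, against 9.22% of all genes. They were 14 of 14 tested in paralogs 1 to 5 (median log2 difference 4.82) and 8 of 8 in paralogs 6 to 9 (median 6.96). Members near 0 in EBs passed the filter only through the NPC libraries, so these counts were in part set by the filter. The untested Hoxc9 stood at 0.12 to 0.23 FPKM in NPCs and 0.41 to 0.79 in EBs. Hoxb9 (Entrez 15417, GRCm38 chr11:96271330-96276595), a thoracic Hox gene, stood at 153, 162, 99.1 and 91.1 FPKM in NPCs and 0.32, 0.26, 0.08 and 0.57 in EBs (log2 difference 8.68 ± 0.36, adjusted p = 2.1e-05). Every NPC library was therefore far above every EB library. Hoxb8 (chr11:96279401-96285325) stood at 309, 324, 252 and 264 FPKM against 0.12, 3.13, 1.18 and 2.43 (7.64 ± 0.74, adjusted p = 1.6e-03), and in the EBs the DMSO library was the lowest. Hoxc6 (7.81 ± 0.35), Hoxb6 (7.07 ± 0.54), Hoxd4 (6.88 ± 0.19), Hoxb7 (6.84 ± 0.33), Hoxa6 (6.54 ± 0.46), Hoxc5 (6.51 ± 0.35) and Hoxd3 (5.75 ± 0.13) followed, as did Haglr, a long noncoding RNA beside the Hoxd genes (5.93 ± 0.29). Of the anterior members, Hoxa3 differed by 3.79 ± 0.43, Hoxa4 by 4.46 ± 0.50 and Hoxa2 by 4.69 ± 0.30. The series of active genes ended below paralog 10. Hoxa9 was listed at no more than 0.19 FPKM in any of the 8 libraries, and the 12 genes of paralogs 10 to 13 summed to 0.12 to 0.32 FPKM in NPCs and 1.03 to 1.87 in EBs, with none tested.

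Regulators of the forebrain and midbrain were the counterpart, with 12 of 17 tested called higher in EBs (24 listed; 21.5% of all genes) and 2 higher in NPCs. Members near 0 in NPCs, such as Otx1 and Six3, passed the filter only through the EB libraries, so the filter set this count in part. Otx2 (Entrez 18424, chr14:48656781-48667644), a homeodomain factor of the anterior brain, stood at 0.09, 0.28, 0.28 and 0.39 FPKM in NPCs and 72.0, 43.7, 43.7 and 43.5 in EBs (log2 difference -7.25 ± 0.29, adjusted p = 5.9e-06). The DMSO EBs were the highest and the bisphenol EBs nearly equal. Otx1 (-7.88 ± 0.26), Six3 of the anterior forebrain and eye (-7.05 ± 0.28) and Barhl2 (-5.75 ± 0.55), which is also on the spinal and hindbrain list, were likewise higher in EBs. The cortical marker Emx1 was listed at 0 to 0.18 FPKM in EBs, too low to be tested. The exceptions on the NPC side were Lmx1b (2.07 ± 0.22) and the midbrain-hindbrain factor Pax5, at 4.17, 4.44, 3.79 and 3.11 FPKM against 0.09, 0.09, 0.42 and 0.09 (4.11 ± 0.40).

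Factors that give spinal and hindbrain neurons their identity were higher in NPCs for 21 of 28 tested, and in EBs for 4 (median 3.26). Among all genes the shares were 9.22% and 21.5%. Lbx1, a determinant of dorsal interneurons (Entrez 16814, chr19:45232684-45236841), was nearly constant among NPC libraries at 53.2, 54.0, 52.0 and 53.6 FPKM and stood at 0.25, 0.73, 0.96 and 0.97 in EBs (6.13 ± 0.22, adjusted p = 1.7e-06). Factors of several neuron classes were among them. Lhx3 (5.77 ± 0.44), Mnx1 (3.81 ± 0.31) and Isl1 (3.29 ± 0.16) specify motor neurons, Evx1 (5.68 ± 0.24) and Lhx1 (3.23 ± 0.23) interneurons, and Pou4f2 (5.57 ± 0.17) and Pou4f1 (2.34 ± 0.20) sensory neurons. The members higher in EBs were Barhl2, Barhl1 (-5.63 ± 0.26), Lhx9 (-5.44 ± 0.42) and Gata3 (-1.26 ± 0.20), the last not called without the DMSO pair.

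Transmitter genes went both ways. Of 13 tested cholinergic, monoamine and peptide genes (20 listed), 4 were called higher in NPCs and 6 in EBs (all genes 9.22% and 21.5%). The vesicular acetylcholine transporter gene Slc18a3 stood at 4.73, 4.01, 6.11 and 5.46 FPKM in NPCs and 0.52, 0.38, 0.54 and 0.59 in EBs (3.38 ± 0.18), whereas Ache, which encodes the enzyme that breaks acetylcholine down, was at 3.14 to 4.47 against 18.8 to 22.3 FPKM (-2.26 ± 0.13). The serotonin transporter gene Slc6a4 (-5.03 ± 0.44) and Th (-2.03 ± 0.30), for the first enzyme of dopamine synthesis, were higher in EBs. Of 14 GABA and glycine genes, 2 were called higher in NPCs and 5 in EBs, few genes to set against the 9.22% and 21.5% of all genes. The NPC members were both glycinergic, the transporter gene Slc6a5 (3.97 ± 0.36) and the receptor gene Glra1 (3.89 ± 0.24), but the glycine receptor gene Glra2 was called higher in EBs (-1.08 ± 0.29), though not without BPA or without BPS.

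Across the width of the neural tube, progenitor factors went both ways: 9 of 20 were called higher in NPCs and 8 higher in EBs (all genes 9.22% and 21.5%). Among dorsal factors, Msx3 (4.00 ± 0.16), Olig3 (3.76 ± 0.23), Gsx1 (2.67 ± 0.21) and Pax3 (2.22 ± 0.13) were higher in NPCs, while Msx2 (-2.01 ± 0.29) was higher in EBs. Lmx1a, at 0.03 to 0.09 against 5.91 to 14.6 FPKM (-6.96 ± 0.28), was higher in EBs too. Whether its RNA came from dorsal cells was not tested. Msx1, which overlaps an antisense gene, was called higher in EBs (-1.50 ± 0.51), but its endpoints overlapped and the call was lost with no filter and without BPA, BPF or BPS. Dbx1 of the intermediate tube was higher in NPCs (3.71 ± 0.12). Ventral factors also went both ways. Nkx2-2 stood at 0.30, 0.20, 0.22 and 0.07 FPKM in NPCs and 17.8, 17.7, 11.4 and 9.29 in EBs (-5.88 ± 0.20, adjusted p = 1.5e-06), Olig2 at 0.08 to 0.24 against 5.79 to 8.15 (-5.22 ± 0.28), and Foxa2, which marks the floor plate and also endoderm, differed by -4.07 ± 0.44, all called higher in EBs. Nkx6-2 lay above in all NPC libraries, at 9.56 to 13.2 against 5.99 to 8.46 FPKM (0.87 ± 0.13, short of the size set for a call). Nkx6-1 was called higher in NPCs at 1.16 ± 0.21, but not without the DMSO pair, with library totals alone or with limma on log2(FPKM + 1).

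Genes of neurogenesis were higher in the NPC libraries. Of 17 tested proneural and neurogenic factors (19 listed), 13 were called higher in NPCs (median 2.64) and 2 in EBs (all genes 9.22% and 21.5%). Neurog1 stood at 20.5, 24.5, 21.8 and 22.3 FPKM against 0.12, 0.24, 0.42 and 0.30 (6.23 ± 0.20, adjusted p = 1.3e-06), and Neurog2 at 22.4 to 24.1 against 3.82 to 6.81 (2.27 ± 0.14). Neurod4 (4.83 ± 0.14), Scrt2 (3.88 ± 0.25), Myt1 (3.59 ± 0.21) and Nhlh2 (3.49 ± 0.13), which act as precursors become neurons, were higher too. Neurod6 (-4.00 ± 0.33) and Neurod2 (-1.77 ± 0.30), factors of forebrain excitatory neurons, went the other way, and Neurod1 was not called (0.12 ± 0.15).

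The cytoskeleton of young neurons was abundant in both cultures and higher in NPCs for 13 of 23 genes, against 9.22% of all genes. Tubb3, the neuronal beta-tubulin, stood at 1040, 1042, 1057 and 1103 FPKM in NPCs and 548, 525, 460 and 492 in EBs (1.24 ± 0.08, adjusted p = 8.9e-06). Stmn1 (1.25 ± 0.08), Ina (2.64 ± 0.15) and Dcx (1.95 ± 0.17) were also higher, and the neurofilament genes more so: Nefm at 172, 187, 268 and 238 FPKM against 8.20, 5.97, 6.18 and 6.66 (5.15 ± 0.19) and Nefl by 3.02 ± 0.18. Stmn4 was the exception (-1.40 ± 0.14). Axon guidance genes had 17 of 44 called higher in NPCs and 6 in EBs (all genes 9.22% and 21.5%). The EB share was thus smaller than that of all genes. Those higher in NPCs were led by Robo3 of commissural axons at 5.51 ± 0.28 and included Sema3a (3.55 ± 0.30), Cntn2 (2.44 ± 0.11) and the netrin receptor Dcc (2.31 ± 0.14).

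Of 29 synaptic and excitability genes, 2 were called higher in NPCs and 5 in EBs, both smaller shares than the 9.22% and 21.5% among all genes. Snap25 stood at 48.7, 51.2, 55.7 and 52.6 FPKM in NPCs and 69.0, 70.3, 59.3 and 51.2 in EBs (-0.08 ± 0.11), Syt1 differed by 0.60 ± 0.08, Syn1 by -0.38 ± 0.08 and Syp by -0.27 ± 0.08, none of them called. Members of the list on the postsynaptic side went both ways. Camk2b stood at 6.50 to 8.71 FPKM in NPCs and 44 to 58.4 in EBs (-2.56 ± 0.13), and Camk2a differed by -2.71 ± 0.19. The scaffold gene Homer1 was called higher in NPCs, at 10.6 to 12.1 against 4.10 to 5.57 FPKM (1.07 ± 0.09), though not with library totals alone or limma on log2(FPKM + 1), and Shank1 lay above there in all libraries (0.78 ± 0.11, short of the size set for a call). Of 12 tested genes of glutamate neurons and receptors, 7 were called higher in EBs and 0 in NPCs, among them Grm5 (-4.13 ± 0.17), Grin1 (-2.12 ± 0.10) and Gria1 (-2.02 ± 0.13). The gene of the GABA-synthesising enzyme Gad1, at 9.51 to 11.9 against 31.1 to 58.6 FPKM (-1.80 ± 0.17), was higher in EBs as well, whereas Gad2 was not called (0.40 ± 0.22).

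**Figure D2:**
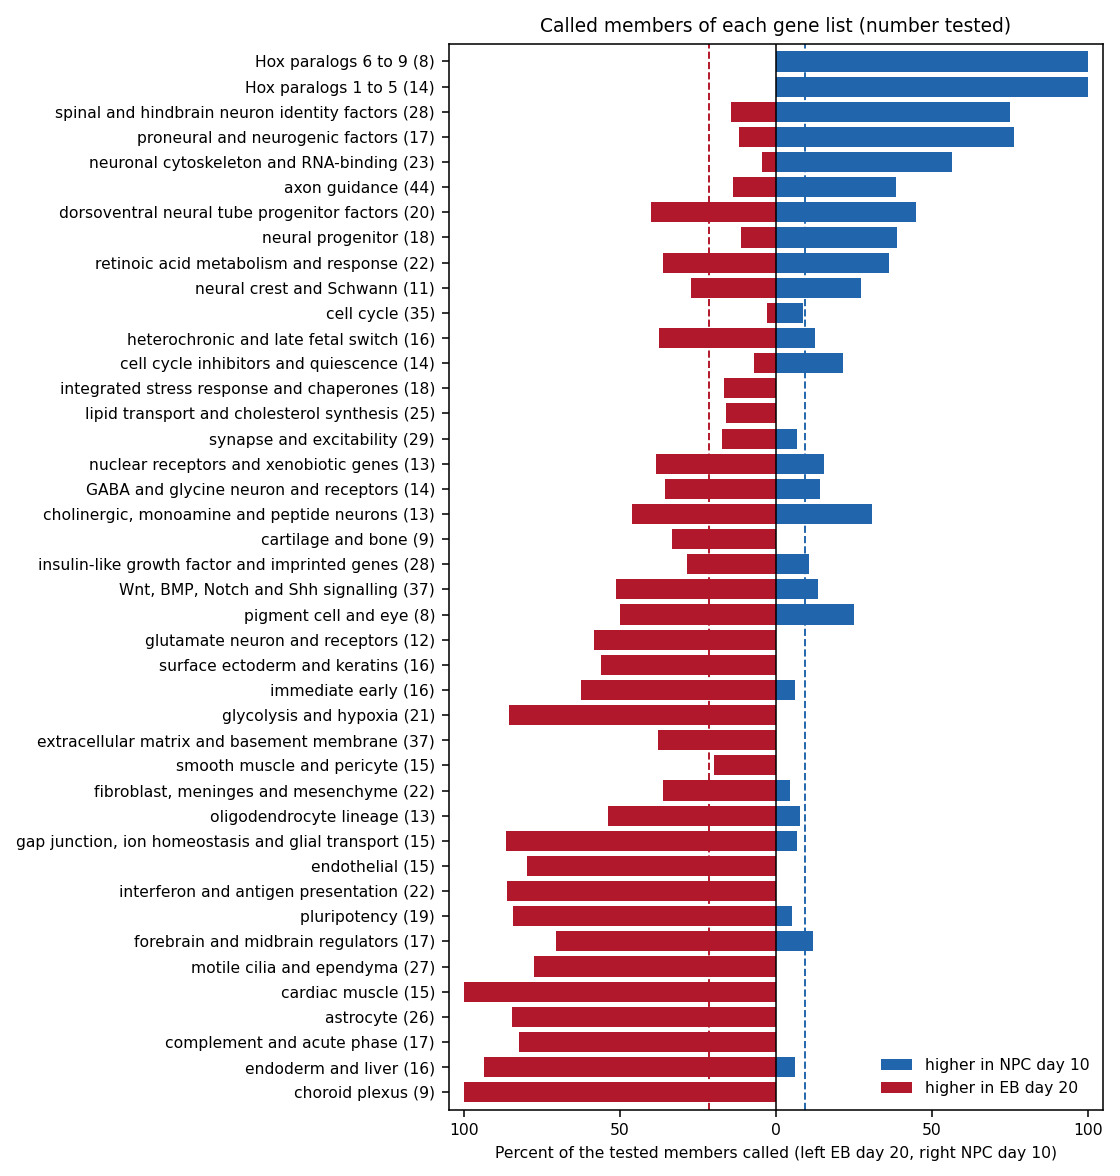
Percent of the tested members of each gene list that were called higher in NPC day 10 (blue, right) or EB day 20 (red, left), ordered by median log2 difference, with the number tested in brackets and dashed lines at the shares among all genes (9.22% and 21.5%). Hox and neuron identity lists lie at the top and choroid plexus, endoderm, complement, astrocyte and cardiac lists at the bottom.

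Retinoic acid genes went both ways, with 8 of 22 tested called higher in each endpoint (all genes 9.22% in NPCs and 21.5% in EBs). The binding proteins that hold retinoic acid in the cell were higher in NPCs: Crabp1 (Entrez 12903, chr9:54764748-54773110) at 446, 367, 399 and 460 FPKM against 7.88, 10.7, 11.7 and 11.2 (5.48 ± 0.15, adjusted p = 8.6e-07) and Crabp2 at 267 to 340 against 15.1 to 25.5 (4.10 ± 0.18). So were Meis2 (2.94 ± 0.14) and Meis1 (2.58 ± 0.10), cofactors of Hox proteins. Those higher in EBs included the degrading enzyme Cyp26a1 (-2.94 ± 0.27), the plasma carrier Rbp4 (-3.41 ± 0.23), Dhrs3 (-4.01 ± 0.53) and the synthesising enzyme Aldh1a1, at 0 to 0.36 FPKM in NPCs and 0.96, 14.4, 16.8 and 17.5 in EBs (-5.29 ± 0.94). In that last gene the DMSO EBs were far below the bisphenol EBs, and without the BPS pair it was not called.

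The label of the NPC cultures was checked against progenitor genes. Nes stood at 47.5, 44.1, 40 and 42.5 FPKM in NPCs and 7.29 to 17.6 in EBs (1.86 ± 0.29), Pax6 at 12.8 to 19.6 against 5.08 to 9.34 (1.56 ± 0.25), and the Notch ligand gene Dll1 at 35.1 to 51.8 against 5.20 to 7.84 (3.0 ± 0.17). Sox2 was at 45.6, 68.1, 53.6 and 55.7 FPKM in NPCs and 74.6, 67.6, 66.7 and 66.7 in EBs (-0.15 ± 0.11, not called), and Sox1 differed by -0.93 ± 0.11, short of the size set for a call. Progenitor markers were thus present beside the neuronal genes above. Of 18 progenitor genes, 7 were called higher in NPCs and 2 in EBs (all genes 9.22% and 21.5%). Of 35 cell cycle genes, 3 were called higher in NPCs and 1 in EBs, neither above the shares of all genes (9.22% and 21.5%). Mki67 (1.05 ± 0.11) was one, and it was not called with library totals alone, with the 5 CPM filter, with limma on FPKM, or without the DMSO or the BPA pair. The cell cycle inhibitor Cdkn1c stood apart at 289, 323, 275 and 281 FPKM in NPCs and 35.2, 27.9, 32.6 and 32.6 in EBs (3.35 ± 0.10). In bulk RNA, fewer cells of a type and less RNA per cell cannot be told apart.

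Neural crest and Schwann genes went both ways: of 11 tested (16 listed), 3 were called higher in NPCs and 3 in EBs. The shares among all genes were 9.22% and 21.5%. Foxd3, an early crest factor, stood at 7.29, 5.76, 6.38 and 5.98 FPKM against 0.09, 0, 0.04 and 0.04 (6.35 ± 0.30), Ngfr differed by 3.86 ± 0.16 and Tfap2a by 3.18 ± 0.13. Sox10, which defines later crest and Schwann cells, was at 0.22 to 0.88 FPKM in NPCs and 0.07 to 0.26 in EBs, too low to be tested, and Ednrb was higher in EBs (-1.52 ± 0.07).

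Astrocyte genes were higher in EBs: of 28 listed, 26 were tested and 22 were called higher in EBs (median -3.76), with 0 higher in NPCs. Among all genes the shares were 21.5% and 9.22%. Members near 0 in NPCs, such as Gfap and Aqp4, passed the filter only through the EB libraries, so the filter set this count in part. Gfap (Entrez 14580, chr11:102887336-102897200), the astrocyte intermediate filament, had no read in any NPC library and stood at 328, 302, 307 and 328 FPKM in EBs. With a floor of 3 counts over the 4 NPC libraries it was at least 11582-fold higher in EBs, a limit that covers counting error only. The water channel Aqp4 stood at 0 to 0.02 FPKM in NPCs and 12.4, 27.1, 26.2 and 21.6 in EBs (-9.72 ± 0.22, adjusted p = 6.1e-07), Mlc1 differed by -6.09 ± 0.25 and the folate enzyme Aldh1l1 by -5.99 ± 0.13. Agt, the precursor of angiotensin made by astrocytes, had no read in NPCs (at least 96.7-fold higher in EBs). S100b, also on the list, was at no more than 0.18 FPKM in the 8 libraries.

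Transporters of glia were called higher in EBs for 13 of 15 tested (17 listed) and in NPCs for 1 (all genes 21.5% and 9.22%). The sodium pump subunit Atp1b2 stood at 6.32, 6.02, 6.08 and 5.02 FPKM in NPCs and 337, 338, 334 and 356 in EBs (-5.69 ± 0.11, adjusted p = 4.3e-07). Its endpoints did not overlap, as was so for 66.974% of all tested genes. The metallothionein genes Mt3 (-5.15 ± 0.21) and Mt1 (-3.91 ± 0.11), the glutamate transporter Slc1a3 (-3.25 ± 0.12) and the zinc transporter Slc39a12, without a read in NPCs (at least 186-fold), were higher in EBs. Slc1a2, the other main glutamate transporter of astrocytes, was not called (0.37 ± 0.14). The nuclear factor I genes that accompany the switch to gliogenesis were higher in EBs: Nfix (-4.21 ± 0.45), Nfib (-2.88 ± 0.15) and Nfia (-2.18 ± 0.15). The list of developmental timing genes, which also holds these factors, had 2 of 16 called higher in NPCs and 6 in EBs (median 0.07). The shares among all genes were 9.22% and 21.5%. The members higher in NPCs were Lin28b (2.0 ± 0.41) and Igf2bp3 (1.96 ± 0.08), genes of early developmental timing. Of 13 tested oligodendrocyte lineage genes (20 listed), 7 were called higher in EBs and 1 in NPCs. Olig1 (-6.67 ± 0.34) and Pdgfra (-3.50 ± 0.22), which is on the fibroblast list too, were higher in EBs, but the lineage factor Sox10 was at 0.07 to 0.26 FPKM there and not tested, and Mbp of myelin stood at 9.56 to 12.4 FPKM in NPCs and 11 to 12.0 in EBs.

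**Figure D3:**
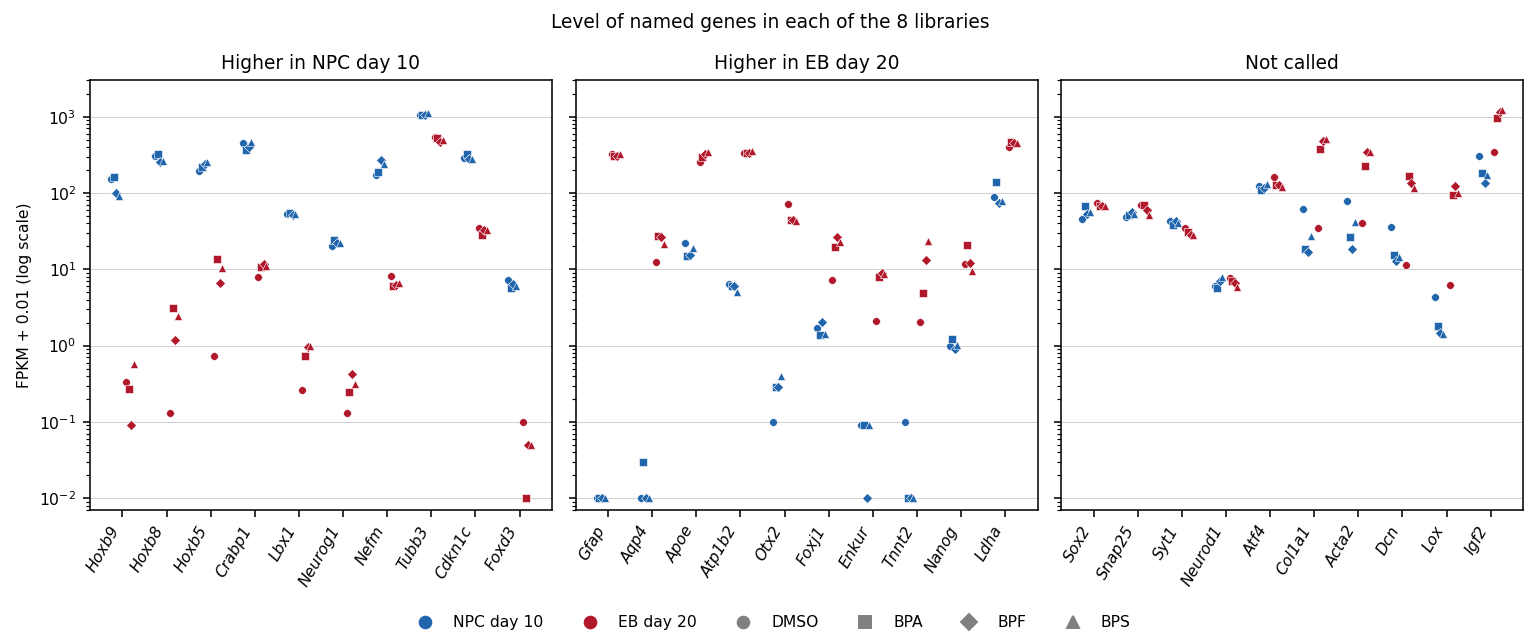
FPKM (log scale, 0.01 added) of 30 genes in each of the 8 libraries, NPC day 10 in blue and EB day 20 in red, with a symbol for each treatment. In the left and middle panels the endpoints do not overlap, as is so for 66.974% of all tested genes. In the right panel Col1a1, Acta2, Dcn, Lox and Igf2 show the DMSO EB library (red circle) below the other EBs.

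Genes of motile cilia, which line the ependyma, were higher in EBs for 21 of 27 tested (35 listed; median -2.94) and in NPCs for 0. Among all genes the shares were 21.5% and 9.22%. Members near 0 in NPCs, such as Enkur, passed the filter only through the EB libraries, so the filter set this count in part. Foxj1, the factor that switches on the motile cilia programme, stood at 1.68, 1.38, 2.0 and 1.42 FPKM in NPCs and 7.14, 19.7, 26.6 and 23 in EBs (-3.25 ± 0.35, adjusted p = 6.0e-04). Enkur, an axonemal protein gene, stood at 0 to 0.08 FPKM against 2.07, 7.96, 8.95 and 8.72 (-5.42 ± 0.40), Cfap126 differed by -5.02 ± 0.32, Cfap44 by -4.90 ± 0.45 and the radial spoke gene Rsph4a by -5.62 ± 0.29. In each of these the DMSO EBs were the lowest EB library and still above all NPCs. Rfx2 was higher in EBs (-2.01 ± 0.17) and Rfx3 was not called (0.02 ± 0.08); both encode RFX factors, which bind X-box sequences in promoters of ciliary genes. The half-site GTTGCC was searched on both strands in the 250 bases before the first listed start of each gene in RefSeq (GRCm38.p6). It was found in 9 of 22 tested cilia genes with a promoter sequence (40.9%), and in 1172 of 11266 promoters of all tested genes (10.4%). The promoters of the cilia genes with the largest differences that hold it are shown because these members moved together, with the half-site, read on either strand, in capitals: Enkur at chr2:21205366-21205615 (minus strand), Cfap44 at chr16:44394549-44394798 (plus strand) and Hydin, a gene of the ciliary central pair, at chr8:110266727-110266976 (plus strand).
Enkur: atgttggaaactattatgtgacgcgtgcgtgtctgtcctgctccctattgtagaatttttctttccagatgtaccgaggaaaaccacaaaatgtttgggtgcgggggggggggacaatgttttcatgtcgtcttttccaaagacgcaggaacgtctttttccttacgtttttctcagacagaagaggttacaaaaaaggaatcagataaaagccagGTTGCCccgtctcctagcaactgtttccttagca
Cfap44: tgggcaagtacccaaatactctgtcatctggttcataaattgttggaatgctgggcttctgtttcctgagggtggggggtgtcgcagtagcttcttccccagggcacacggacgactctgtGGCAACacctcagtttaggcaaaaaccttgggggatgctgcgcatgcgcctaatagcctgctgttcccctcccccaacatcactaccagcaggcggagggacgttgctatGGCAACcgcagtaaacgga
Hydin: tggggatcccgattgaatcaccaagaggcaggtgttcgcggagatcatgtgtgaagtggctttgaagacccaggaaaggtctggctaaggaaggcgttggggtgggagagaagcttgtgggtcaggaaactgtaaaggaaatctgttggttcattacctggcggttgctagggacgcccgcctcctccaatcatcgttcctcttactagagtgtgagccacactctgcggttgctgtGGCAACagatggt
The match of Enkur began 34 bases before the start, those of Cfap44 129 and 19 bases and that of Hydin 13 bases before it. A match is a description of these letters and was not tested as a binding site.

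The choroid plexus, the epithelium that secretes cerebrospinal fluid, shares Otx2 and ciliary genes with these groups. All 9 tested genes of its list (14 listed) were called higher in EBs, against 21.5% of all genes. Among them were Aqp1 (-6.26 ± 0.35), Ttr at 0.08 to 0.33 FPKM against 16.7, 12.9, 33.6 and 24.1 (-6.06 ± 0.31) and Clic6 (-4.77 ± 0.18). Ttr is also a liver and yolk sac gene, and Kl of the mature plexus was at no more than 0.14 FPKM, too low to be tested. Members near 0 in NPCs passed the filter only through the EB libraries, so the count was in part set by it.

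Genes of other germ layers were higher in EBs. All 15 tested cardiac genes (20 listed; median -3.34) were called: Tnnt2 stood at 0.09, 0, 0 and 0 FPKM in NPCs and 2.03, 4.90, 13.4 and 23.5 in EBs (-6.47 ± 0.49), Actc1 differed by -6.12 ± 0.58 and the cardiac and endodermal factor Gata4 by -4.71 ± 0.29. The EBs themselves spread widely in Tnnt2, lowest with DMSO and highest with BPS. Cardiac members near 0 in NPCs, such as Tnnt2, passed the filter only through the EB libraries, so the count was in part set by it. Endoderm and liver genes had 15 of 16 tested called higher in EBs and 1 in NPCs (22 listed). Here too members near 0 in NPCs, such as Ttr, passed the filter only through the EB libraries. Among all genes 21.5% were called higher in EBs and 9.22% in NPCs. Sox17 stood at 0.09 to 0.54 FPKM against 11.4, 6.39, 9.36 and 11.4 (-4.76 ± 0.31), and Hnf4a differed by -4.65 ± 0.33. The yolk sac and fetal liver genes Afp (26, 8.17, 110 and 6.93 FPKM in EBs; -5.29 ± 0.44) and Apoa1 (7.34, 4.98, 31.9 and 4.45; -4.75 ± 0.50) were highest in the BPF library. Endothelial genes were higher in EBs for 12 of 15 tested (20 listed), among them Flt1 (-3.80 ± 0.27) and Tek (-2.93 ± 0.20), while Cdh5 was not called (-0.70 ± 0.63).

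Of 20 microglia and macrophage genes only 6 were high enough to be tested, and 5 were higher in EBs, such as Laptm5 (-3.40 ± 0.36). Among all genes 21.5% were called higher in EBs. Tyrobp was at 0 FPKM in all NPCs and 0.19, 0.92, 5.43 and 8.80 in EBs, too low in most libraries to be tested, and Aif1 did not pass 0.36 FPKM. Of the 12 erythroid genes none was tested. Pluripotency genes were higher in EBs for 16 of 19 tested (median -2.66). Pou5f1 stood at 2.30, 1.87, 1.13 and 2.47 FPKM in NPCs and 24.4, 29.3, 19.6 and 17.5 in EBs (-3.36 ± 0.21), Nanog at 0.89 to 1.22 against 9.41 to 20.7 (-3.52 ± 0.18) and Dppa5a at 2.88 to 5.61 against 55.5 to 125 (-3.98 ± 0.18). Both endpoints were far below the stem cell level: undifferentiated ESCs of the series had means of 810 FPKM for Pou5f1, 512 for Nanog and 2163 for Dppa5a. Esrrb, another such gene, was called higher in NPCs (1.01 ± 0.12), but not with library totals alone, the 5 CPM filter, limma on FPKM or no term for treatment, nor without the BPS pair.

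**Figure D4:**
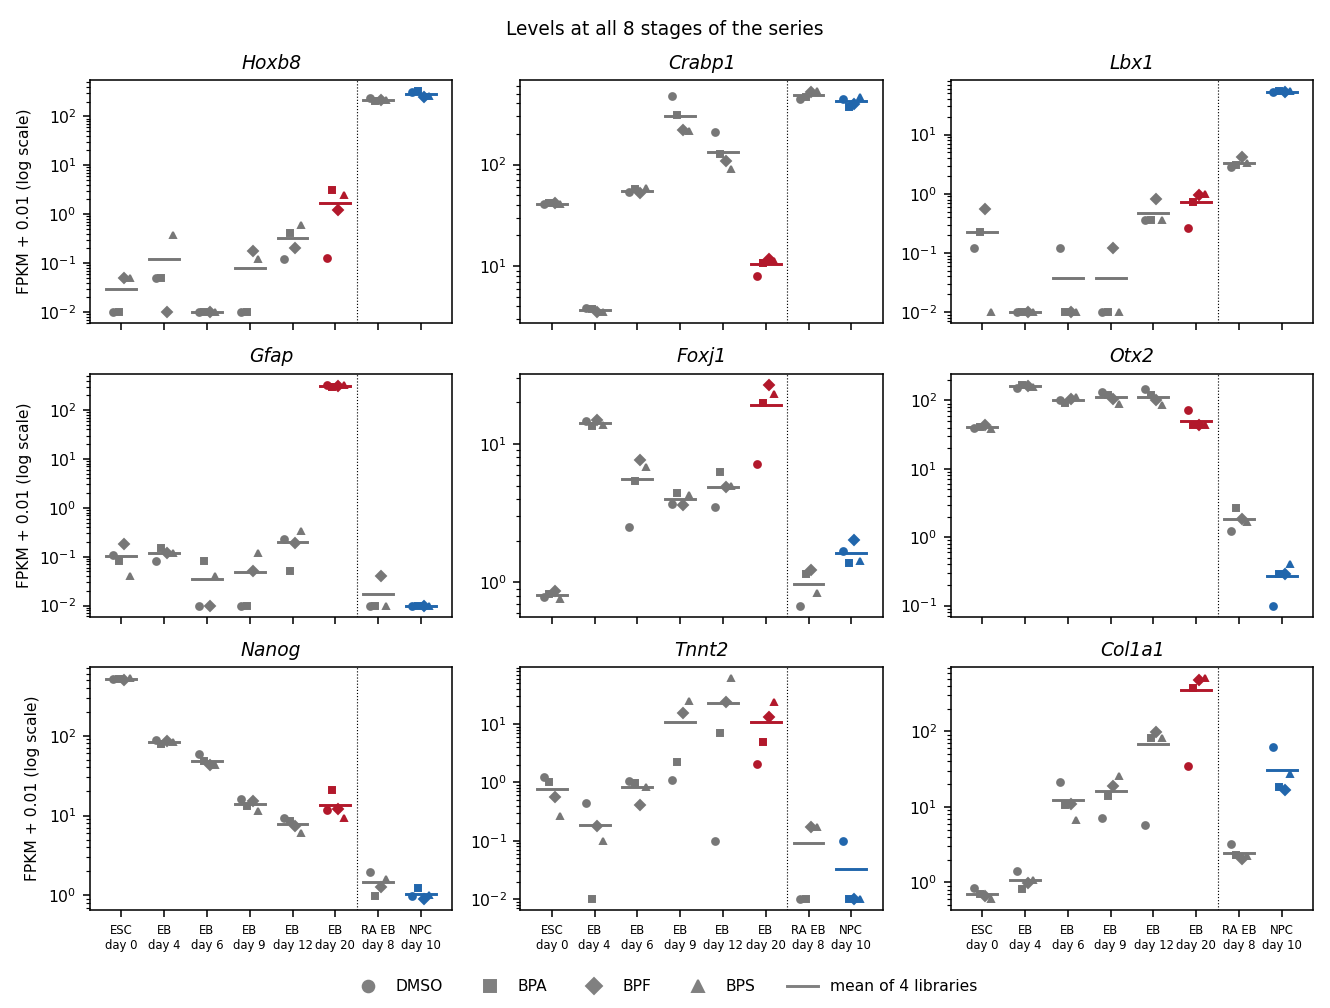
FPKM (log scale, 0.01 added) of 9 genes at the 8 stages of the series, with a symbol for each treatment, bars for the mean of 4 libraries, EB day 20 in red and NPC day 10 in blue. Hoxb8 and Crabp1 are already high in RA EBs of day 8, Lbx1 is highest at NPC day 10, and Gfap is near 0 at all stages but EB day 20.

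The plot of all stages places these endpoints on their own courses. Hoxb8 averaged 218 ± 9.80 FPKM in the retinoic acid EBs of day 8 and 287 ± 34.6 in NPCs, against 0.32 ± 0.22 in EBs of day 12 and 1.71 ± 1.33 at day 20. Lbx1 was at 3.34 ± 0.63 FPKM in the retinoic acid EBs and 53.2 ± 0.85 in NPCs. Crabp1 was high in both protocols before the end: it averaged 303 ± 124 FPKM in EBs of day 9, 134 ± 52.1 at day 12 and 10.4 ± 1.71 at day 20. Neurog1 likewise averaged 18 FPKM in EBs of day 12, against 22.3 in NPCs and 0.27 in EBs of day 20. Otx2, at 50.7 ± 14.2 FPKM in EBs of day 20, had averaged 40.5 ± 2.02 in ESCs and 1.85 ± 0.60 in the retinoic acid EBs.

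Genes of glycolysis and the response to low oxygen were higher in EBs for 18 of 21 tested (22 listed; median -1.67) and in NPCs for 0. Among all genes the shares were 21.5% and 9.22%. Ldha, lactate dehydrogenase, stood at 88.2, 137, 74.6 and 78.8 FPKM in NPCs and 401, 472, 458 and 447 in EBs (-2.10 ± 0.14, adjusted p = 2.4e-05). Aldoc (-3.63 ± 0.13), Ndrg1 (-3.60 ± 0.18), the oxygen sensor Egln3 (-2.88 ± 0.14), the glucose transporter Slc2a1 (-1.57 ± 0.17) and the angiogenic factor Vegfa (-1.83 ± 0.09) were higher as well. Within NPCs the BPA library was the highest for Ldha. In all of these genes the endpoints did not overlap, which was so for 66.974% of all tested genes. Hypoxia-inducible factors bind response elements with the core ACGTG. That core, on either strand of the same 250 bases, was found in 8 of 19 tested members with a promoter sequence (42.1%) and in 2439 of 11266 promoters of all tested genes (21.65%). The members with the largest differences that hold it are shown, with the core in capitals: Egln3 at chr12:54203875-54204124 (minus strand), Hk2, a hexokinase gene, at chr6:82774455-82774704 (minus strand) and Ldha at chr7:46845554-46845803 (plus strand).
Egln3: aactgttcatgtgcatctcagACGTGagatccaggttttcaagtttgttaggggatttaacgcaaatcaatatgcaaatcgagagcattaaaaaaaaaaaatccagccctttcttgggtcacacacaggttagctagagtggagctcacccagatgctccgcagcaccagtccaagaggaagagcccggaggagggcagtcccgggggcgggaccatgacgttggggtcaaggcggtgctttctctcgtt
Hk2: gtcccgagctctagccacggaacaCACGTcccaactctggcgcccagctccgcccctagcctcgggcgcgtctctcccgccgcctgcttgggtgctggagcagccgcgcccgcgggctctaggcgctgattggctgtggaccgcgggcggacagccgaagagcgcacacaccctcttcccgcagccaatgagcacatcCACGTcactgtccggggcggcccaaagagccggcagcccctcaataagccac
Ldha: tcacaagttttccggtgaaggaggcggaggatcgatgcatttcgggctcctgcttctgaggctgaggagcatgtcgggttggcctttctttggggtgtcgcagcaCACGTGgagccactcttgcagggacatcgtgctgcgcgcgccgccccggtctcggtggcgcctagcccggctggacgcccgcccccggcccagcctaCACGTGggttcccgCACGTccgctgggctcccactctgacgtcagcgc
In Ldha the core lies on both strands within CACGTG, so adjoining matches overlap. Its 5 matches began 145, 144, 48, 47 and 34 bases before the listed start, those of Hk2 226 and 52 bases and that of Egln3 229 bases before it. As above, a match was not tested as a binding site.

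Immune-related genes were higher in EBs. Complement and acute phase genes had 14 of 17 tested called (20 listed; median -3.90), led by Serpina3n, a protease inhibitor of reactive astrocytes, at 0 to 0.62 FPKM in NPCs and 463, 151, 165 and 202 in EBs (-9.47 ± 0.34), and A2m (-8.08 ± 0.19). Serpina3n and its neighbour Serpina3m belong to a family of near-identical genes, so the division of reads between them is uncertain. Genes of interferon response and antigen presentation had 19 of 22 tested called (27 listed; median -2.42), such as Ifi27 (-4.99 ± 0.44), Bst2 (-3.73 ± 0.25) and the MHC class I gene H2-K1 at 3.20 to 4.31 FPKM against 28.9 to 34.8 (-2.79 ± 0.11). Immediate early genes had 10 of 16 tested called higher in EBs and 1 in NPCs. Fos stood at 1.10 to 1.75 against 9.79 to 19.4 FPKM (-2.99 ± 0.20), but Jun was not called (-0.37 ± 0.08). For all of these lists the shares among all genes were 21.5% in EBs and 9.22% in NPCs. Of the lipid genes Apoe, the main lipid carrier of the brain, stood at 14.9 to 22 FPKM against 255 to 349 (-3.94 ± 0.17), whereas 21 of 25 members were not called.

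Among the most abundant RNAs, Bc1, a short cytoplasmic RNA of neuronal dendrites, stood at 79.5, 121, 132 and 99.3 FPKM in NPCs and 3556, 1967, 1893 and 2304 in EBs (-4.27 ± 0.32), and the imprinted noncoding RNA H19 at 103 to 182 against 956 to 1340 (-3.03 ± 0.13). The ribosomal protein genes Rps2 (-1.07 ± 0.08), Rplp1 (-1.10 ± 0.09) and Rps29 (-1.28 ± 0.09) were called higher in EBs, while Rps26 (-0.21 ± 0.06) was not. The RNA-binding protein genes Hnrnpk (1.19 ± 0.07), Nono (1.32 ± 0.07) and Hnrnpab (1.40 ± 0.07) were higher in NPCs. Several of these genes have near-identical copies elsewhere in the genome, so their estimated counts are uncertain.

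In connective tissue genes the size and the direction of the endpoint difference depended on treatment. Collagen gene Col1a1 (Entrez 12842, chr11:94936224-94953042) stood at 62.4, 18.5, 16.8 and 27.1 FPKM in NPCs and 34.8, 378, 475 and 504 in EBs. The DMSO culture was thus the highest NPC library and the lowest EB library, the only treatment with more Col1a1 in NPCs, and over the 4 pairs the gene was not called (-3.37 ± 1.44, adjusted p = 0.11). Without the DMSO pair it was called (-4.28, adjusted p = 4.6e-11). The same held for the decorin gene Dcn, at 35.8, 15.5, 12.7 and 14.3 FPKM in NPCs and 11.5, 165, 135 and 118 in EBs (-2.19 ± 1.23, and -3.10 without the DMSO pair), and for smooth muscle actin Acta2, at 77.7, 26.5, 18.6 and 41.5 against 41, 229, 340 and 349 (-2.41 ± 1.16, and -3.26 without it). Lox, which cross-links collagen, was not called over all pairs (-4.78 ± 1.5, adjusted p = 0.053) and was called without DMSO (-5.92).

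Whole lists showed the same. Extracellular matrix genes had 14 of 37 tested called higher in EBs, smooth muscle and pericyte genes 3 of 15 and fibroblast and mesenchyme genes 8 of 22. Without the DMSO pair these numbers were 33, 12 and 19. Members called higher in NPCs numbered 0, 0 and 1, with or without that pair. Among all genes, 3073 of 14304 (21.5%) were called higher in EBs over all pairs and 3594 of 14613 without the DMSO pair. Over all pairs the smooth muscle share was thus no larger than that of all genes. Within the DMSO pair the median log2 difference of the members was positive, at 0.37, 1.11 and 1.10, and in the BPA, BPF and BPS pairs it lay between -2.04 and -3.48. For comparison, the median of all genes tested lay between -0.02 and -0.03 in each pair, and that of the astrocyte list between -3.06 and -4.09. Some basement membrane genes did not follow: Col4a1, at 96.9, 53.4, 44.9 and 56.0 FPKM in NPCs and 451, 344, 423 and 615 in EBs (-2.73 ± 0.24), Lamc1 (-3.05 ± 0.20) and Lama1 (-3.28 ± 0.15) were higher in EBs in every pair.

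**Figure D5:**
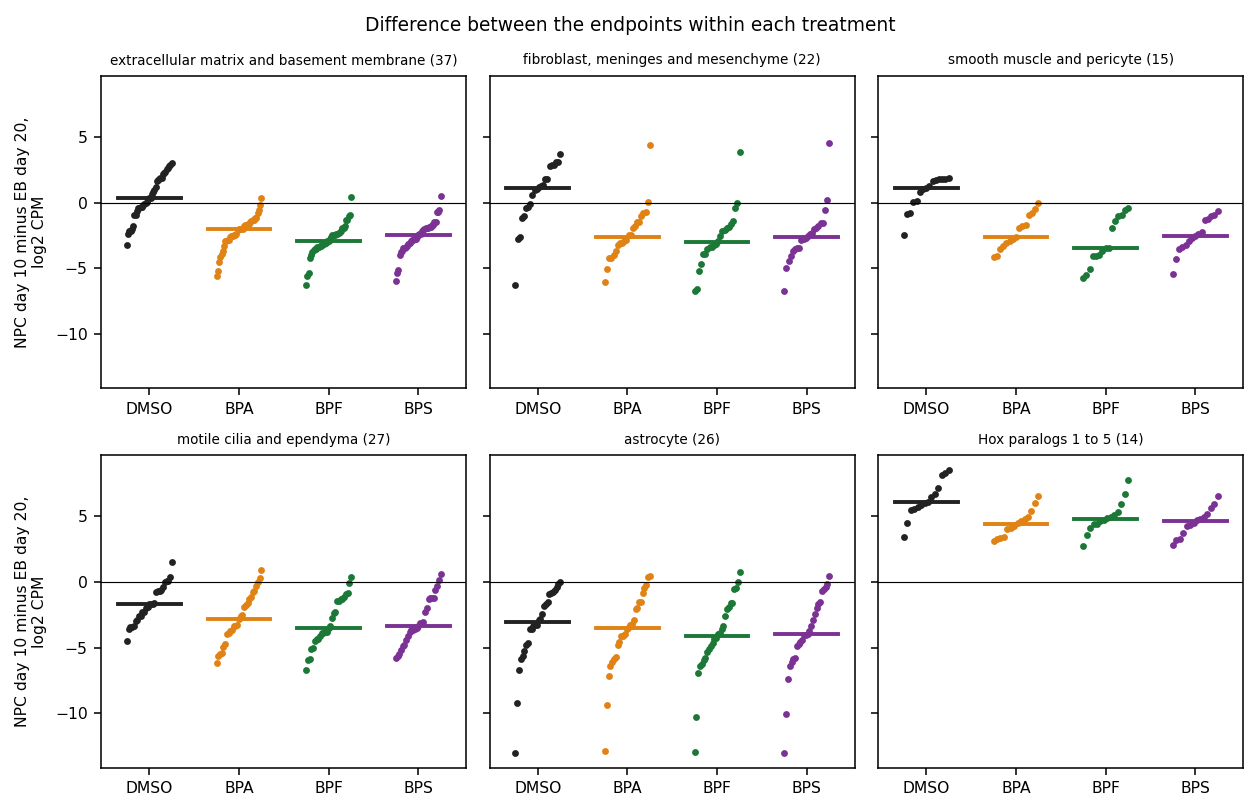
Difference between NPC day 10 and EB day 20 in log2 CPM within each treatment, for the tested genes of 6 lists, with 1 point per gene and bars at the medians. In the 3 upper panels the DMSO medians are positive (0.37, 1.10 and 1.11) and the bisphenol medians negative, and in the astrocyte and Hox panels all 4 treatments lie on the same side.

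The effect of the bisphenols was compared between endpoints in a model of endpoint by class, with the 3 bisphenols as 1 class against the lone DMSO library, which was assumed to vary like the others. Against DMSO, 261 genes were called in NPCs (1.82%; 21 higher and 240 lower with bisphenols) and 1960 in EBs (13.7%; 1130 higher and 830 lower), here without a limit on size. The difference between these effects was called for 1304 genes (9.12%). These counts rest on single libraries: without BPA they were 557, 3304 and 2494, and without BPF 139, 970 and 707. It was called for 27 of 37 matrix genes, 18 of 22 fibroblast genes and 13 of 15 smooth muscle genes, with median differences of -3.48, -3.40 and -2.91. Lox was lower with bisphenols in NPCs (-1.5 ± 0.20) and higher in EBs (4.12 ± 0.19; difference -5.61 ± 0.27, adjusted p = 4.7e-09), and so was Dcn (-1.36 ± 0.16 and 3.58 ± 0.19; difference -4.95 ± 0.25). Of the genes called and averaging at least 5 FPKM in some group, Osr1 (-5.71 ± 0.53), Cpz (-5.56 ± 0.72) and Mgp, a matrix calcification inhibitor (-5.39 ± 0.54), were, with Lox, among the lowest. Otx2 (2.14 ± 0.60), Lhx9 (2.40 ± 0.61) and the neuronal factors Onecut3 (2.10 ± 0.38) and Onecut1 (2.07 ± 0.48) differed in the opposite direction. Because 1 DMSO library stands on each side, an effect of bisphenol and a peculiarity of that culture cannot be told apart.

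Further groups of neural genes also varied with treatment in EBs. Of 14 tested Hox genes of paralogs 1 to 5, 11 were called in bisphenol EBs against the DMSO EBs (median 1.83) and 1 in NPCs: Hoxb5 stood at 0.71, 13.8, 6.58 and 10.5 FPKM in EBs and 194, 220, 239 and 255 in NPCs (effect in EBs 3.75 ± 0.65, in NPCs 0.26 ± 0.27). Of 27 cilia genes 20 were called in EBs (median 1.45), among them Foxj1 (1.69 ± 0.20), and 0 in NPCs. Among all genes 13.7% were called in EBs and 1.82% in NPCs. The difference between the effects was called for 10 of these 14 Hox genes and 3 of the 27 cilia genes (9.12% of all genes). Several cilia genes, such as Enkur, were near 0 in NPCs, where a call was hardly possible. The endpoint differences of both groups stood without the DMSO pair, with 14 of 14 Hox genes of paralogs 1 to 5, 7 of 8 of paralogs 6 to 9 and 21 of 27 cilia genes called. In NPCs, under the same limit on level, the genes lowest with bisphenols against DMSO were Inhba, an activin subunit, at 10.2, 2.83, 1.19 and 2.90 FPKM (-2.14 ± 0.33), the epithelial gene Emp1 (-1.95 ± 0.23), the tight junction gene Cldn6 (-1.81 ± 0.28), Perp (-1.63 ± 0.26) and the growth factor gene Hbegf (-1.62 ± 0.21). Those highest were the host transcript Mir124a-1hg of the neuronal microRNA (0.99 ± 0.19), Igdcc3 (0.88 ± 0.12), Igsf11 (0.88 ± 0.19), Onecut3 (0.83 ± 0.20) and Cox8a (0.81 ± 0.14).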

How the data were processed

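RNA of mouse J1 cultures, taken up in Trizol and cleaned on RNeasy Plus columns, was made into libraries at BGI, per the labels' protocols. The authors deposited, for each gene and library, expected counts (estimated counts that need not be whole) and FPKM. The tools Bowtie2, HISAT and RSEM and the build mm10 are named, per the submitters' processing notes, with roles and versions not given in the sources used here. Genes absent from a library's file were set to 0.

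Expected counts of the 8 libraries were rounded and scaled by TMM, and genes with 1 CPM or more in at least 4 libraries were kept. The endpoint difference was tested with edgeR 4.0.16 in R 4.3.3 (quasi-likelihood test, prior count 1, Benjamini-Hochberg adjustment over 14304 genes), with terms for endpoint and treatment and 3 residual degrees of freedom. Bisphenol effects used endpoint by class, with 4 residual degrees of freedom, and were called on the adjusted p alone. The scripts were also tested on simulated data. Alternatives were other scaling, filters, DESeq2 1.42.0, limma 3.58.1 on log2(FPKM + 1) and log2(FPKM + 0.1), no term for treatment, all 32 libraries, and leaving out each treatment.

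Members and lists were chosen with earlier results of these data known. Named genes were the 15 with the largest called change each way (mean of 10 FPKM or more), the 10 most abundant called each way, the first 4 of each list with up to 5 called members each way, the 5 highest and lowest of each bisphenol contrast, and 5 abundant genes that were level. Not all of these are printed, and some are not reported here. Hoxc9, Emx1, Mbp, Hydin, Hk2, Msx1, Msx2, Nkx6-2 and Shank1 fall outside that rule and were chosen after their values were seen. Promoter sequences are RefSeq's, of GRCm38.p6, and genes on chr18 were left out of those shown.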

Additional observations from a re-analysis of the deposited data

Results flagged for a closer look

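In the groups of 4 libraries of an endpoint, 51 of 390 held a highest or lowest library far from the rest by Dixon's criterion. Chance alone meets it in about 1 in 20 groups of equal libraries, but these libraries differ in treatment. The DMSO library was the distant one in 22 of the EB groups and 14 of the NPC groups. Some genes were chosen as the highest or lowest of the bisphenol contrasts, where DMSO differs. The number flagged and the share of DMSO therefore follow in part from that choice. Some flags, such as Otx1 at 0.03 and Aqp4 at 0.02 FPKM in NPCs, lie near 0. The DMSO library of the EBs was above the others in Otx2 at 72, Otx1 at 18.1, Barhl2 at 12.5, Lhx9 at 22.5, Myt1 at 8.27, Sox2 at 74.6, Serpina3n at 463, A2m at 36.7, Serpina3m at 26.6, Nono at 209, Onecut3 at 0.92, Mir124a-1hg at 6.79 and Gata3 at 15.1 FPKM. The DMSO library of the EBs was below the others in Sema3a at 0.63, Dhrs3 at 8.57, Aldh1l1 at 27.7, Nfix at 16.5, Enkur at 2.07, Rsph4a at 0.62, Aqp1 at 2.19, Cpz at 0.24 and Mgp at 5.52 FPKM. The BPA library of the EBs was above the others in Hoxa6 at 0.61 FPKM. The BPF library of the EBs was above the others in Pax5 at 0.42 and Apoa1 at 31.9 FPKM. The BPF library of the EBs was below the others in Grin1 at 12.4 FPKM. The BPS library of the EBs was below the others in Homer1 at 4.1 FPKM. The DMSO library of the NPCs was above the others in Otx1 at 0.03, Dcn at 35.8, Lox at 4.38, Tnnt2 at 0.09, Flt1 at 1.91, Lama1 at 7.84, Osr1 at 2.65 and Perp at 8.44 FPKM. The DMSO library of the NPCs was below the others in Barhl1 at 0.03, Lhx1 at 87.1, Glra1 at 2.22, Hydin at 0, Igdcc3 at 18.1 and Cox8a at 39.97 FPKM. The BPA library of the NPCs was above the others in Aqp4 at 0.02 FPKM. The BPA library of the NPCs was below the others in Six3 at 0, Slc6a4 at 0 and Syp at 76.2 FPKM. The BPF library of the NPCs was below the others in Enkur at 0 FPKM, and above them in Homer1 at 12.1 FPKM. The BPS library of the NPCs was above the others in Neurog2 at 24.1, Cfap126 at 0.69, Rps29 at 329 and Gata3 at 3.79 FPKM.

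The effect of the bisphenols differed between the endpoints by the edgeR test of the difference itself (NPC effect minus EB effect, log2, Benjamini-Hochberg adjusted) in the genes listed here. Most were chosen as the highest or lowest of these contrasts, so their number says nothing beyond that choice, and 9.12% of all genes tested were called. These were Otx2 (2.14), Lhx9 (2.40), Col1a1 (-5.31), Acta2 (-4.35), Dcn (-4.95), Lox (-5.61), Foxj1 (-1.78), Osr1 (-5.71), Cpz (-5.56), Mgp (-5.39). The others were Onecut3 (2.10), Onecut1 (2.07), Hoxb5 (-3.48), Inhba (-4.92), Emp1 (-3.54), Cldn6 (-1.46), Perp (-2.96), Hbegf (-1.57), Mir124a-1hg (2.66), Igdcc3 (1.47) and Igsf11 (0.95). Each rests on 1 DMSO library per endpoint.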

How the results depend on the processing

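Of 168 genes named and called, 156 kept their call under every alternative and 12 lost it under 1 or more. The endpoint count of 4392 ranged from 3144 (limma on log2(FPKM + 1)) to 5404 (no filter), and from 4116 to 5100 when a treatment was left out. Only the NPC side moved by over 1.5 times, from 1319 to 693 with limma on log2(FPKM + 1); the cause was not tested. Without the replicate block for treatment 4504 genes were called (1315 higher in NPCs, 3189 in EBs). Deviations of same-treatment libraries had correlations of -0.30 (DMSO), 0.03 (BPA), -0.22 (BPF) and -0.06 (BPS), so treatment did not pair the libraries beyond its label.

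The bisphenol counts depended on single libraries. Leaving out BPA, BPF or BPS gave 139 to 557 genes in NPCs (main 261; 557 without BPA and 139 without BPF), 970 to 3304 in EBs (main 1960; 3304 without BPA and 970 without BPF) and 707 to 2494 for the difference (main 1304; 2494 without BPA and 707 without BPF). With limma on log2(FPKM + 1) 121 were called in NPCs, and with all 32 libraries 2092 for the difference; the causes were not tested. DMSO, the lone control, could not be left out.

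Only genes that were not called changed sign. Neurod1 was at -0.047 with library totals alone, -0.038 and -0.044 with limma at pseudocounts 1 and 0.1, and between -0.020 (without BPS) and 0.25 (without DMSO) when a treatment was left out. Snap25 was between -0.17 (without BPS) and 0.0075 (without DMSO). Mbp was at -0.040, -0.094 and -0.10 with library totals and those limma fits. Rfx3 was at -0.15, -0.12 and -0.14 with the same, -0.042 with the 5 CPM filter and between -0.012 (without BPS) and 0.065 (without BPF). Inhba was at 0.14 with no replicate block, 0.27 with all 32 libraries, and between -1.10 (without DMSO) and 0.52 (without BPF), with 0.23 without BPS. With 1 library per treatment and endpoint, differences between single treatments could not be tested. Gfap, Agt and Slc39a12, without a read in any NPC library, are given as bounds. Genes with few reads there, such as Aqp4, Otx1 and Tnnt2, are given as fitted differences. Their size rests in part on the prior count of 1. Their SE, derived from the test statistic, may understate the uncertainty of so few reads.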
